A study of Mus musculus with 4 samples.

Results

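Spink5, which encodes the secreted serine protease inhibitor LEKTI, was examined together with 8 epidermal serine proteases (Klk5, Klk6, Klk7, Klk8, Klk10, Klk11, St14 and Prss8) and with Spint1, which encodes an inhibitor of the membrane-anchored proteases. The genes were taken by name: every gene probe whose name in the array files was that of a listed gene was used, which gave 14 probes of 10 genes (3 for Klk7, 2 each for St14 and Spint1) out of 41174 gene probes, of which 35563 passed the filter on dim probes. The genes were chosen on earlier results of these arrays, in which the genotype ratio of Spink5 was low, so those ratios are described here without a test. All 14 probes passed the filter, and each was well above background in both dyes on 4 of 4 arrays by the scanner's flag, with no saturated spot. That flag was also met by signals not far above background, such as those of Klk5 at passage 3.

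The cells were cultured epidermal keratinocytes of 2 genotypes, Casp-8F/–K5-Cre, written F/- below, and Casp-8F/+K5-Cre, written F/+. F is the usual symbol of an allele flanked by recombination sites, and K5-Cre is a recombinase driven by the promoter of keratin 5, a gene of basal keratinocytes. F/+ cells therefore carried the recombinase and a deletable copy of the caspase-8 gene as well, next to a wild-type copy. Age was labelled P3 for every sample. Keratinocytes of 2 mice of each genotype were cultured unsorted in serum-free medium, and RNA was taken at passage 3 and at passage 1, which gave 8 RNA samples. Each of the 4 two-colour arrays held an F/- sample in Cy3 and an F/+ sample in Cy5 of the same passage, with 2 arrays (pair 1 and pair 2) at each passage. Dyes were never swapped, so a dye effect adds to every genotype ratio, whereas a constant dye effect cancels between passages within a genotype. On both passage 3 arrays the source name of the Cy5 sample gave the first passage, while the title, the description and the passage entry gave the third, which was followed.

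In the outer epidermis, kallikrein-related peptidases cut the proteins that hold corneocytes together, so that the surface layer is shed. KLK5 can activate itself and other kallikreins, among them KLK7, and fragments of LEKTI bind and block KLK5 and KLK7. In a second cascade matriptase (St14) and prostasin (Prss8) act at the cell surface, where the inhibitor HAI-1 (Spint1) restrains them. Loss of SPINK5 in people causes Netherton syndrome, with barrier failure and skin inflammation.

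The kallikrein genes lie next to each other on mouse chromosome 7, and their members of the list behaved differently with passage. The 250 bases upstream of the RefSeq start sites (build GRCm38.p6, plus strand, which is the coding strand here) are shown for the 4 kallikreins that fell with passage and for the 2 that did not pass the test. Capitals mark a GC box, GGGCGG on either strand.
Klk5: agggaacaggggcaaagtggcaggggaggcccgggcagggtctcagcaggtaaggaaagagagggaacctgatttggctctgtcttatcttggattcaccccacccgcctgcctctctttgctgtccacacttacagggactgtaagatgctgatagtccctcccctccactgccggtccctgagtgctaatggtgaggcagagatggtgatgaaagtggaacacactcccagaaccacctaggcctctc
Klk6: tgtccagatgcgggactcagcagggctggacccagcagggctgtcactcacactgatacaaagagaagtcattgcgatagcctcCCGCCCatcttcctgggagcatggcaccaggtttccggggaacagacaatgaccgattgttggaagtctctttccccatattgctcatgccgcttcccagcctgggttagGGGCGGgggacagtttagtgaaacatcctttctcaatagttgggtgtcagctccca
Klk7: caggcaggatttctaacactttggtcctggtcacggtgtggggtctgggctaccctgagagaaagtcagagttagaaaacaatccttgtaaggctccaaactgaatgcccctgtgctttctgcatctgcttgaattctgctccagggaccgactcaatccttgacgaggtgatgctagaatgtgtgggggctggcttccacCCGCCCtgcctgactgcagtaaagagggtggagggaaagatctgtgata
Klk10: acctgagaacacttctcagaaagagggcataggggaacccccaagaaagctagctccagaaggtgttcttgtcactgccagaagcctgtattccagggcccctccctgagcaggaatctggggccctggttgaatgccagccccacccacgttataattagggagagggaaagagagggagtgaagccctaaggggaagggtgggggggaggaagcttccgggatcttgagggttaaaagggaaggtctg
Klk8: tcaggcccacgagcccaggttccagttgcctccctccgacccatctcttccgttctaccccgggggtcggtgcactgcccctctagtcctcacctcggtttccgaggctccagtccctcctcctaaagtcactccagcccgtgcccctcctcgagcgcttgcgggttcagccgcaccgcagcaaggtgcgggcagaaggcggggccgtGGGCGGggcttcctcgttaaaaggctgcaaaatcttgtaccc
Klk11: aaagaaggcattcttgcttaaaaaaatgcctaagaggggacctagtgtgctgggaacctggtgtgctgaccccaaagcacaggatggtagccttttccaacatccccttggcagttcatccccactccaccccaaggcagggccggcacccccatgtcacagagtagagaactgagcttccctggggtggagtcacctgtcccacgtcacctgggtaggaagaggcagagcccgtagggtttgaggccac
The windows are, in the same order, chr7:43842019-43842268, chr7:43824294-43824543, chr7:43811044-43811293, chr7:43780804-43781053, chr7:43797327-43797576 and chr7:43774367-43774616. Windows were taken for 7 of the 10 genes, 9 start sites in all, Klk6 and Klk11 having a further start site each. Spink5, St14 and Prss8 were not among them. Klk6 had GC boxes beginning 166 and 56 bases upstream of the start shown, Klk7 had a GC box at 49 bases and Klk8 had a GC box at 42 bases, while Klk5, Klk10 and Klk11 had none in these windows. Such a box stood in 32.742% of 32851 mouse windows of this length. Other motifs were searched on both strands, and none was found in any of the 9 windows. A TATA box, TATAAA, stood in 12.368% of all windows. A CCAAT box, by its name the letters searched, stood in 33.85%. An AP-1 site, TGANTCA, stood in 6.749% and a Grainyhead site, AACNGGTT, in 1.79% of them. The GC box was present both in genes that fell (Klk6, Klk7) and in a gene that did not pass the test (Klk8).

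Array quality was even. Raw Cy3 signals had medians of 100.5 to 138.9, with a local background of 37 to 39, and raw Cy5 signals had medians of 166 to 253, with a local background of 59 to 61; 75.8% to 85.4% of Cy3 and 80.6% to 87.9% of Cy5 spots were well above background. All 4 arrays were on 1 slide and in 1 scan. Of 12 keratinocyte markers, such as Krt5 and Krt14, 12 were well above background in every channel. The Casp8 probe, which cannot check a deletion without knowing the part deleted, had log2 ratios of 0.47 and -0.20 at passage 3 and of 0.42 and 0.18 at passage 1. Levels below are log2 normalised intensities of a probe. They can be compared between passages within a genotype but not between probes, and between genotypes they also differ in dye. In cultured cells, fewer cells expressing a gene and less RNA per cell cannot be told apart.

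Spink5 had the lowest genotype ratio of the list on every array. Its log2 level was 6.98 and 7.36 in F/- cells at passage 3, against 9.01 and 8.52 in F/+ cells, and 11.75 and 12.36 in F/- cells at passage 1, against 14.26 and 14.12 in F/+ cells. The order of the 4 conditions was thus F/+ at passage 1, F/- at passage 1, F/+ at passage 3 and F/- at passage 3. The genotype steps in that order also compare Cy5 with Cy3. The log2 ratio of F/- over F/+ was -2.03 and -1.16 at passage 3 and -2.51 and -1.76 at passage 1, a mean of -1.86 ± 0.56 (SD, n = 4 arrays), or 3.64-fold lower in F/- cells. The 4 arrays rest on cultures of 2 mice of each genotype, so here and below they are not 4 independent animals. At passage 3 the raw Cy3 signal of F/- cells was only 94.0 and 115, so the offset of 50 added before the logarithm held the ratio in: with no offset the passage 3 ratios were -2.68 and -1.55.

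Among the kallikreins, Klk5, whose product starts the cascade, had ratios of -0.03 and -0.06 at passage 3 and of -2.12 and -0.59 at passage 1. Its passage 3 ratios rest on low signals: raw signals there were 64.1 and 59.9 in the Cy3 dye of F/- cells, over backgrounds of 41 and 37, and 109.7 and 105 in the Cy5 dye of F/+ cells, over backgrounds of 64 and 61. Klk7, the chymotrypsin-like protease that cuts corneodesmosin, was read by 3 probes. The brightest gave ratios of -0.88 and -0.91 at passage 3 and of -1.40 and 0.35 at passage 1. The others gave -1.02, -0.45, -1.003 and 0.19, and -0.78, -0.69, -1.21 and 0.47, in the same order of arrays. All 3 probes were thus lower in F/- cells on 3 of 4 arrays and higher on the pair 2 array of passage 1.

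Klk6 followed the same pattern of signs, with ratios of -0.60 and -0.31 at passage 3 and of -0.97 and 0.43 at passage 1. Klk10 was lower in F/- cells at passage 3, at -0.74 and -0.73, and close to even at passage 1, at 0.02 and 0.11. Klk8, which encodes neuropsin, lay on both sides of 0, at -0.07 and 0.25 at passage 3 and at -0.19 and 0.36 at passage 1. Klk11 did so too, at 0.14 and -0.07 at passage 3 and at -0.07 and 0.52 at passage 1. With arrays centred on their median instead of by loess, the mean of Klk8 turned from 0.09 to -0.37. No kallikrein other than Klk5 kept its sign on 4 of 4 arrays. Probes below 0 on 4 of 4 arrays made up 19.9% of all probes measured, and probes above 0 on 4 of 4 made up 19%.

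Of the membrane-anchored proteases and their inhibitor, St14 was higher in F/- cells on every array. Its brighter probe gave ratios of 0.41 and 0.46 at passage 3 and of 0.25 and 0.16 at passage 1, and its dimmer probe gave 1.02 and 0.88 at passage 3 and 1.23 and 1.14 at passage 1. The probes therefore differed in size, with means of 0.32 ± 0.14 and 1.07 ± 0.15 (SD, n = 4 arrays), and the brighter probe turned to a mean of -0.12 when arrays were centred on their median instead of by loess. Prss8 had ratios of -0.05 and 0.37 at passage 3 and of -0.27 and 0.46 at passage 1. Spint1 had ratios of 0.00 and 0.39 at passage 3 and of 0.05 and 0.10 at passage 1 on its brighter probe, and of 0.13, 0.44, 0.46 and 0.36 in the same order on its dimmer probe. Neither Prss8 nor the brighter Spint1 probe kept its sign on 4 of 4 arrays, and with median centring their means turned from positive to -0.03 and -0.20.

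Set against the proteases array by array, Spink5 stood below every protease on 4 of 4 arrays. Its low ratio was known when the genes were chosen, so this order and the differences that follow are a description only. The mean ratio of the 8 proteases was -0.23 and -0.12 at passage 3 and -0.59 and 0.22 at passage 1. Spink5 minus that mean was -1.80 and -1.04 at passage 3 and -1.92 and -1.98 at passage 1, a mean of -1.68 ± 0.44 (SD, n = 4 arrays). The lowest protease was Klk7 at passage 3, at -0.88 and -0.91, and Klk5 at passage 1, at -2.12 and -0.59. In the fit over all probes (limma, adjusted p under 0.05 after Benjamini-Hochberg adjustment), the mean ratio of both passages was called for 2 of the 14 probes as lower (Spink5 and Klk10) and for 2 as higher (both St14 probes), where 2.99% of all probes were called lower and 5.85% higher, 8.84% in all. Nothing is read from that count, since the genes were picked with these ratios known. At passage 3 or passage 1 alone limma called 0 of 35563 probes, with 7109 and 7330 at an unadjusted p under 0.05, and with no offset it called 69 at passage 1. On the same arrays the 14 fibroblast markers had a median log2 ratio of 0.92 at passage 3 and of 0.24 at passage 1, and the 14 leukocyte markers one of 0.21 and of 0.35. In the mean genotype ratio 2 fibroblast markers (Mmp2 at 1.17 and Col5a2 at 0.79) and 2 leukocyte markers (Pf4 at 1.497 and Lyz2 at 1.27) were called higher in F/- cells and 0 lower. Of the 12 keratinocyte markers 5 were called lower in F/- cells and 0 higher, namely Krt14 at -0.66, Krt5 at -0.60, Col17a1 at -0.58, Perp at -0.55 and Krt15 at -0.45. The list as a whole had no common direction: 6 mean ratios lay below 0 and 6 above, with a median of -0.003. Which markers to name was decided after their values were seen, and their part in the genotype ratios was not tested.

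**Figure D1:**
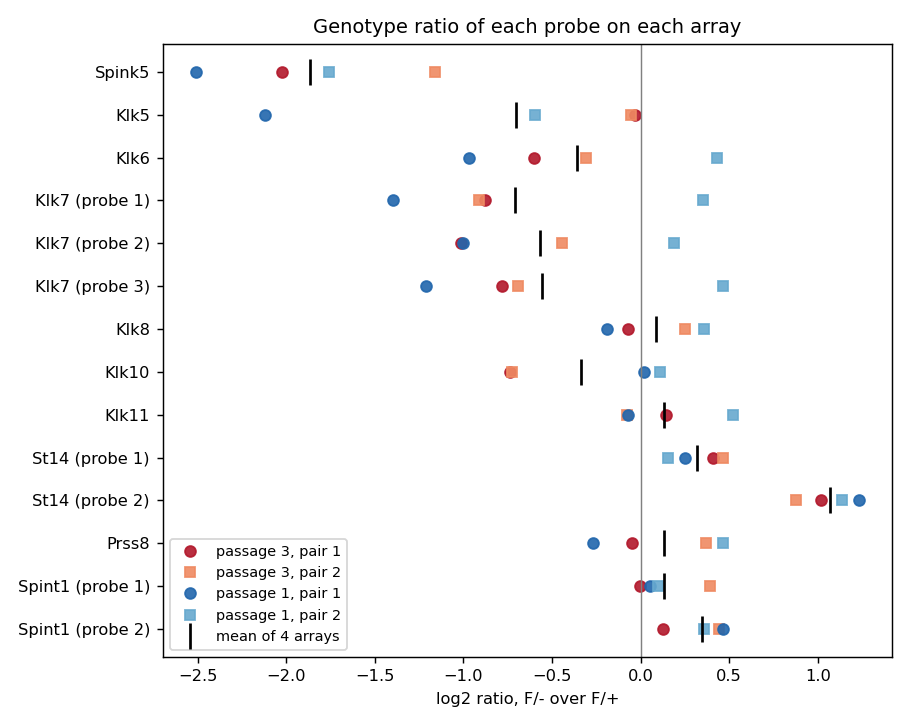
Log2 ratio of F/- over F/+ (horizontal axis) for each of the 14 probes (vertical axis); points are arrays, by passage and pair, and the black tick is the mean of the 4 arrays. Spink5 lies between -2.51 and -1.16, the dimmer St14 probe between 0.88 and 1.23, and the Klk7 and Klk6 probes lie below 0 on all arrays but the pair 2 array of passage 1.

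Most of these genes were lower at passage 3 than at passage 1. In F/- cells and in F/+ cells alike, 8 of the 14 probes, of 6 of the 10 genes (Spink5, Klk5, Klk6, Klk7, Klk10 and Prss8), fell at passage 3 relative to passage 1, and 0 rose. Of all probes 5.11% were called in F/- cells, 2.22% as lower and 2.89% as higher, and 5.66% were called in F/+ cells, 2.42% as lower and 3.23% as higher (limma on separate channels, adjusted p under 0.05). The median change of the 14 probes was -2.78 in F/- cells and -2.91 in F/+ cells on the log2 scale, against 0.01 and 0.02 for all probes. For each of the 8 probes the passage 3 values lay below the passage 1 values without overlap and at least 4-fold apart in their means, as did 0.88% of all probes in F/- cells and 0.868% in F/+ cells. These p-values rest on 2 cultures a group. They measure only the spread between cultures of the same group, pooled over both genotypes and passages and drawn towards that of all probes.

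**Figure D2:**
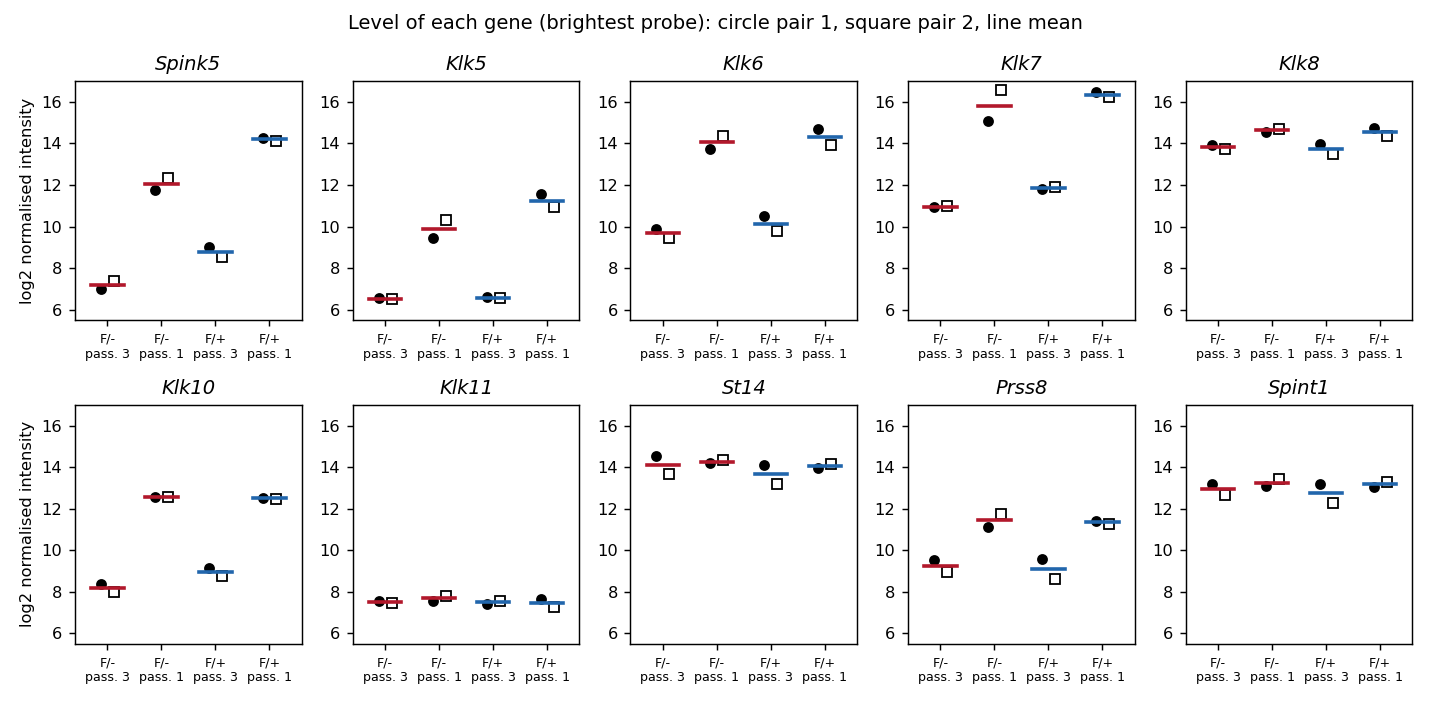
Log2 normalised intensity (vertical axis) of the brightest probe of each of the 10 genes, in F/- and F/+ cells at passage 3 and passage 1; circles are pair 1, squares pair 2 and lines means (red F/-, blue F/+). Spink5, Klk5, Klk6, Klk7, Klk10 and Prss8 sit lower at passage 3 than at passage 1 in both genotypes. Klk8 changes by -0.80 in F/- cells and -0.81 in F/+ cells, which did not pass the test. Klk11, St14 and Spint1 move less, Klk11 at low signals throughout.

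Spink5 averaged 7.17 ± 0.26 at passage 3 and 12.06 ± 0.43 at passage 1 in F/- cells, a log2 change of -4.89 (SE 0.44, limma adjusted p = 0.00168), or 29.6-fold. In F/+ cells it averaged 8.76 ± 0.35 at passage 3 and 14.19 ± 0.10 at passage 1 (SD, n = 2 each), a change of -5.43 (SE 0.44, adjusted p = 0.00114), or 43.0-fold. Of 35464 probes ranked by this change, Spink5 was 27th from the bottom in F/- cells and 13th in F/+ cells. With no offset the change in F/- cells was -5.59. The call was lost in F/- cells without the pair 1 array of passage 1 (adjusted p = 0.0620) and without the pair 2 array of passage 1 (adjusted p = 0.0740), and in F/+ cells without the pair 2 array of passage 1 (adjusted p = 0.0503).

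The kallikreins divided into those that fell by more than 10-fold and those that did not pass the test. Klk7 was at 10.95 and 10.97 in F/- cells at passage 3, against 15.07 and 16.56 at passage 1, and at 11.83 and 11.88 in F/+ cells at passage 3, against 16.47 and 16.21 at passage 1. Its 3 probes changed by -4.86, -5.49 and -5.52 in F/- cells and by -4.48, -5.17 and -5.15 in F/+ cells, with adjusted p-values from 0.00409 to 0.0115. All 3 probes therefore gave a fall of 22.3-fold or more in each genotype. The pair 1 and pair 2 arrays of passage 1 decided its size in F/- cells: without the first the brightest probe changed by -5.56 and the dimmest by -6.38, and without the second by -4.11 and -4.71. The remaining probe lost its call in F/- cells without either array (adjusted p = 0.0730 and 0.0886) and in F/+ cells likewise (adjusted p = 0.0852 and 0.0731), and its change in F/+ cells was -5.94 without the pair 1 array of passage 3 and -4.42 without the pair 2 array of passage 3.

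Klk5 had levels of 6.56 and 6.50 in F/- cells at passage 3, against 9.45 and 10.34 at passage 1, and of 6.59 and 6.56 in F/+ cells at passage 3, against 11.57 and 10.93 at passage 1. The groups did not overlap in either genotype, and both genotypes sat near the lower end of the scale at passage 3. The log2 change was -3.36 (SE 0.57, adjusted p = 0.0204) in F/- cells and -4.68 (SE 0.57, adjusted p = 0.00503) in F/+ cells, and with no offset it was -4.47 and -5.79. Without the pair 2 array of passage 3 the adjusted p in F/- cells was 0.0504. Klk6 had levels of 9.89 and 9.46 in F/- cells at passage 3, against 13.74 and 14.36 at passage 1, and of 10.49 and 9.77 in F/+ cells at passage 3, against 14.70 and 13.93 at passage 1. It changed by -4.37 in F/- cells (SE 0.56, adjusted p = 0.00688) and by -4.19 in F/+ cells (SE 0.56, adjusted p = 0.00727), a fall of 20.7-fold and of 18.2-fold. Without the pair 2 array of passage 1 the adjusted p of Klk6 in F/- cells was 0.0502.

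Klk10 had the smallest standard error of the 14 probes. Its level was 8.38 and 8.01 in F/- cells at passage 3, against 12.54 and 12.57 at passage 1, and 9.12 and 8.74 in F/+ cells at passage 3, against 12.52 and 12.46 at passage 1. The change was -4.36 in F/- cells (SE 0.17, adjusted p = 1.76e-04) and -3.56 in F/+ cells (SE 0.17, adjusted p = 1.88e-04), a fall of 20.5-fold and of 11.8-fold. It kept its call under 10 of 10 alternative settings in each genotype, with adjusted p-values from 1.11e-05 to 0.0297. Klk8 was at 13.91 and 13.72 in F/- cells at passage 3, against 14.55 and 14.69 at passage 1, and at 13.99 and 13.47 in F/+ cells at passage 3, against 14.74 and 14.34 at passage 1. Its changes of -0.80 (SE 0.29, adjusted p = 0.167) and -0.81 (SE 0.29, adjusted p = 0.163) did not pass the test. With the pair number as a block they did, with adjusted p-values of 0.0472 and 0.0451. Klk11 changed by -0.17 (SE 0.26, adjusted p = 0.746) in F/- cells and by 0.02 (SE 0.26, adjusted p = 0.969) in F/+ cells. Its signals were low at passage 1 already, which left little room for a fall. Raw Cy3 signals there were 127.7 and 206.8 over backgrounds of 41 and 39. Raw Cy5 signals were 240 and 253 over backgrounds of 60 and 62.

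Of the second cascade, Prss8 fell and its partners did not pass the test. Prss8 was at 9.52 and 8.96 in F/- cells at passage 3, against 11.13 and 11.74 at passage 1, and at 9.57 and 8.59 in F/+ cells at passage 3, against 11.40 and 11.27 at passage 1. It changed by -2.19 (SE 0.40, adjusted p = 0.0265) in F/- cells, or 4.57-fold, and by -2.26 (SE 0.40, adjusted p = 0.0217) in F/+ cells, or 4.79-fold. This was the weakest of the calls: it was lost without either passage 1 array, at adjusted p-values of 0.151 and 0.235 in F/- cells and of 0.157 and 0.166 in F/+ cells, and in F/+ cells without the pair 2 array of passage 3 (adjusted p = 0.0619). St14 changed by -0.17 and -0.02 on its probes in F/- cells and by -0.40 and 0.22 in F/+ cells, with standard errors of 0.29 and 0.43 and adjusted p-values from 0.468 to 0.984. Spint1 changed by -0.33 and -0.18 in F/- cells and by -0.45 and -0.05 in F/+ cells, with standard errors of 0.29 and 0.36 and adjusted p-values from 0.413 to 0.951. Passages overlapped for the brighter St14 probe in F/- cells, where it read 14.53 and 13.66 at passage 3 and 14.20 and 14.32 at passage 1. Without the pair 1 array of passage 3 the brighter probes of St14 and Spint1 passed the test as lower in F/+ cells (adjusted p = 0.0379 and 0.0389).

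**Figure D3:**
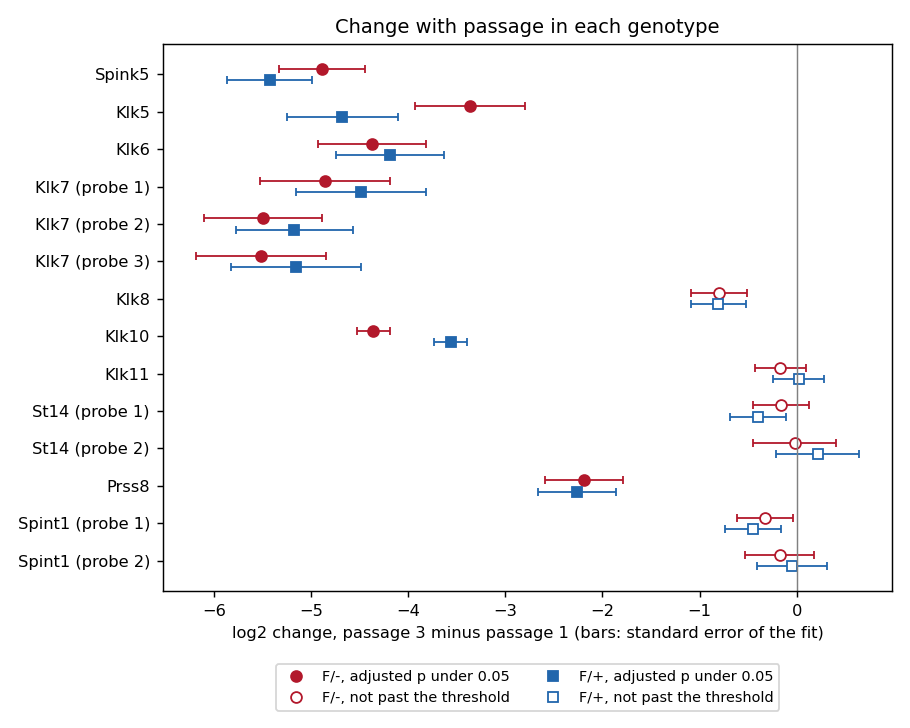
Log2 change at passage 3 relative to passage 1 (horizontal axis) of the 14 probes (vertical axis) in F/- cells (red circles) and F/+ cells (blue squares); bars are standard errors of the limma fit, and filled symbols have an adjusted p under 0.05. The 8 filled probes in each genotype lie between -5.52 and -2.19, and the open ones between -0.81 and 0.22.

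Placed in chromosomal order, the kallikreins that fell were not all neighbours. Klk7, Klk6 and Klk5 stand side by side, while Klk10 is separated from them by Klk9 and Klk8, which did not pass the test. Of the 6 other kallikreins measured, 1 fell in each genotype and 0 rose: Klk12, at -0.88 (SE 0.14, adjusted p = 0.0181) in F/- cells and -0.93 (adjusted p = 0.0135) in F/+ cells. Klk9 changed by -0.30 and -0.45, Klk1 by -0.67 and -0.84, Klk14 by 0.21 and 0.20, Klk4 by 0.03 and 0.02 and Klk15 by 0.18 and 0.17 in F/- and F/+ cells. The 6 genes had a median change of -0.14 in F/- cells and -0.22 in F/+ cells. None of the 6 was called for the mean genotype ratio, which was largest for Klk14 at 0.07 and smallest for Klk4 at -0.15.

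**Figure D4:**
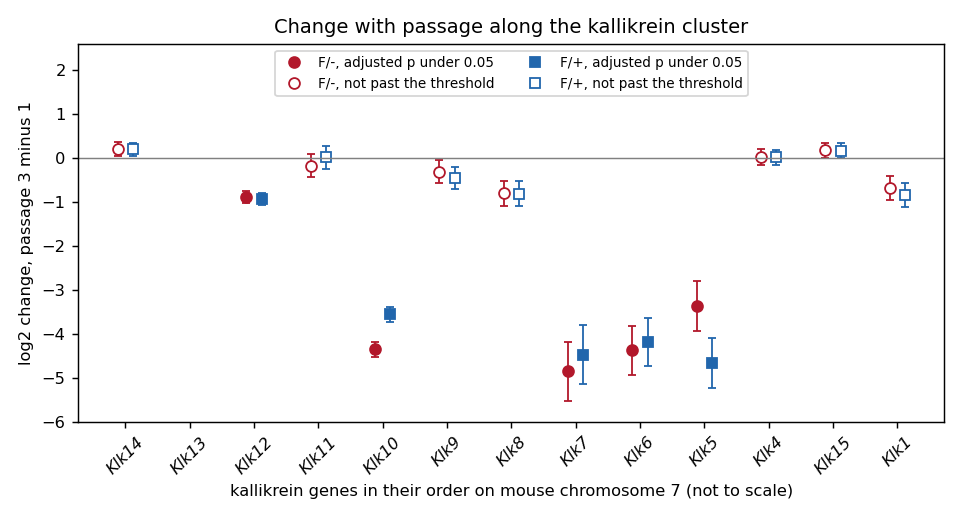
Log2 change at passage 3 relative to passage 1 (vertical axis) of the kallikrein genes in their RefSeq order on mouse chromosome 7 (horizontal axis, not to scale), in F/- cells (red circles) and F/+ cells (blue squares); bars are standard errors, filled symbols have an adjusted p under 0.05, and Klk13 was not measured. Klk10, Klk7, Klk6 and Klk5 lie at -3.36 or lower, and all others lie at -0.93 or higher.

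Whether the fall with passage differed between the genotypes was tested as the difference of the genotype ratios, passage 3 minus passage 1. Limma called 0 of 35563 probes, with 2073 at an unadjusted p under 0.05 and a smallest adjusted p of 0.820. Spink5 differed by 0.54 (SE 0.38, adjusted p = 0.921), Klk5 by 1.31 (SE 0.50, adjusted p = 0.856) and Klk10 by -0.80 (SE 0.11, adjusted p = 0.820). The other probes of the list differed by between -0.37 and 0.23, with adjusted p-values from 0.870 to 0.998. A different fall in the genotypes was therefore not detectable for any of these genes with 2 arrays a passage. For Klk5 the value rests on the pair 1 array of passage 1, without which it was 0.55, and it was 2.08 without the pair 2 array of passage 1. The same arrays turned the direction for Klk6 and Klk7: without the pair 1 array of passage 1 Klk6 stood at -0.88 and the Klk7 probes between -1.25 and -0.92, and without the pair 2 array of passage 1 Klk6 stood at 0.51 and the Klk7 probes between 0.27 and 0.50. The direction of the other values within 0.2 of 0 also turned without an array, for Klk8, Klk11, Prss8 and Spint1.

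The level of Spink5 over the 8 channel values, each gene centred on its own mean, was most like that of Krtdap, with a root mean square distance of 0.36 on the log2 scale, followed by Tmprss4 at 0.45, Il1f5 at 0.52, Calm4 at 0.52, Cstdc6 at 0.53, Hopx at 0.53, Sbsn at 0.59 and Krt23 at 0.62. Cstdc6 and Hopx are named Stfa1 and Hod in the array files. Krtdap and Sbsn encode secreted proteins of differentiating keratinocytes, and Tmprss4 encodes a membrane-anchored serine protease. These 8 genes changed with passage by between -5.82 and -4.23 in F/- cells and had mean genotype ratios between -1.84 and -0.66. Within the list Klk7 was nearest to Spink5, at 0.72 and 19th of all probes, a rank that counts the Spink5 probe itself. Next, on the same count, were Klk5 (30th), Klk6 (36th), Klk10 (45th) and Prss8 (259th). Ranked by Pearson's r instead, only 1 of the 8 nearest genes, Krtdap, was again among them.

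Around these genes, terminal differentiation genes fell with passage in a larger share than any other gene or marker list examined. Of 24 such genes 16 fell in each genotype and 0 rose, with a median of -2.41 in F/- cells and -3.20 in F/+ cells. Sprr1a, a cornified envelope precursor, changed by -6.18 in F/- cells and -5.52 in F/+ cells, Calm4 by -5.82 and -5.33, Sprr1b by -5.62 and -5.14, and Krtdap by -5.33 and -5.90. In the mean genotype ratio 9 of the 24 were lower in F/- cells and 0 higher, with a list median of -0.56, led by Krtdap at -1.47, Sbsn at -1.19, Calm4 at -1.11 and Dmkn at -1.07. The list overlaps genes that earlier results of these arrays had shown to be lower, so its direction is not independent evidence. Calls of the mean genotype ratio are also fragile: 0 of all probes were called without either passage 1 array, without the pair 1 array of passage 3, or with the arrays of a pair averaged first.

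Genes whose products these proteases cut or act through fell in part. Of 27 substrates and receptors 7 fell in F/- cells and 9 in F/+ cells, and 0 rose, with medians of -0.40 and -0.60. Cdsn, which encodes the corneodesmosin cut by KLK5 and KLK7, changed by -4.71 (adjusted p = 0.00309) and -5.16 (adjusted p = 0.00193) in F/- and F/+ cells. Scnn1g, a subunit of the epithelial sodium channel on which prostasin acts, changed by -3.34 and -3.58, and Dsg1b, a desmosomal cadherin, by -1.28 and -1.55. Flg, the filaggrin precursor, stood at -2.96 in F/- cells, where it did not pass the test (adjusted p = 0.101), and fell in F/+ cells, at -3.77 (adjusted p = 0.0475). In the mean genotype ratio 3 of the 27 were lower in F/- cells, namely Mst1 at -0.67, Dsc1 at -0.64 and the protease-activated receptor F2rl1 at -0.46. Epcam was higher in F/- cells, at 0.62.

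Other proteases and other inhibitors moved in both directions and mostly did not pass the test. Of 22 other epidermal proteases 2 fell and 1 rose in each genotype. The membrane-anchored Tmprss4 changed by -4.23 and -5.08, Tmprss13 by -2.17 and -2.10 and hepsin (Hpn) by 1.16 and 1.17 in F/- and F/+ cells. In the mean genotype ratio Htra1 was lower in F/- cells at -0.74 and Prss23 at -0.72, while Prss22 was higher at 0.70 and the proprotein convertase Furin at 0.54. Of 33 other protease inhibitors 2 fell and 3 rose in each genotype. Those that rose were Wfdc2 (2.96 and 2.74 in F/- and F/+ cells), Wfdc18 (2.91 and 3.98) and Serpinb9 (0.96 and 0.86). Serpinb6c fell in both genotypes, at -1.78 and -1.85. Slpi, a secreted inhibitor of leukocyte proteases, passed the test in F/- cells at -1.51 and stood at -1.06 in F/+ cells (adjusted p = 0.0751). Serpinb8 stood at -1.82 in F/- cells (adjusted p = 0.0530) and passed the test in F/+ cells at -2.14. Serpina3n was higher in F/- cells at a mean ratio of 1.06, and Serpinb10 and Serpinb5 were lower at -1.09 and -0.47.

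**Figure D5:**
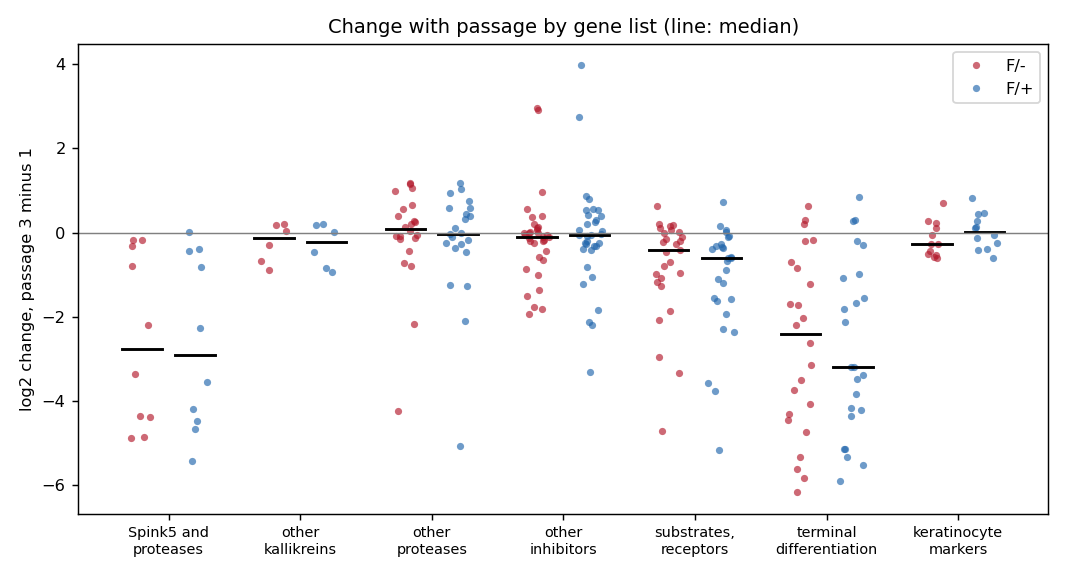
Log2 change at passage 3 relative to passage 1 (vertical axis) of each gene of 7 lists (horizontal axis; the first is Spink5, the proteases and Spint1), in F/- cells (red) and F/+ cells (blue); points are genes and black lines medians. Among the other 6 lists terminal differentiation genes have the lowest medians, at -2.41 and -3.20, and keratinocyte markers lie around 0.

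Markers of other cells also differed between these cultures. None of the 12 keratinocyte markers passed the test with passage in either genotype. Summed levels here are the log2 of the summed intensities of a list, so its brightest genes weigh most. F/- and F/+ levels also differ in dye. For keratinocyte markers the summed level was 19.16 to 19.25 in F/- cells and 19.60 in F/+ cells at passage 3. At passage 1 it was 19.25 to 19.40 in F/- cells and 19.47 to 19.67 in F/+ cells. Of 14 leukocyte markers 2 fell with passage in F/- cells and 5 in F/+ cells, with summed levels of 13.21 to 13.83 in F/- cells and 11.990 to 11.996 in F/+ cells at passage 3, against 14.87 to 15.50 in F/- cells and 14.75 to 14.92 in F/+ cells at passage 1. Of 7 melanocyte markers 4 fell in F/- cells and 3 in F/+ cells, with summed levels of 14.66 to 14.68 in F/- cells and 14.56 to 14.76 in F/+ cells at passage 3, against 16.07 to 16.13 in F/- cells and 16.13 to 16.38 in F/+ cells at passage 1. Of 14 fibroblast markers 1 rose with passage in each genotype and 2 were higher in F/- cells in the mean genotype ratio, with summed levels of 13.94 to 14.52 in F/- cells and 12.75 to 13.33 in F/+ cells at passage 3, against 14.12 to 14.36 in F/- cells and 13.18 to 13.94 in F/+ cells at passage 1. Of 7 endothelial markers 1 fell in each genotype. No marker of any of these lists was below background in both dyes on all arrays. The part of other cells in the changes of Spink5 and the proteases was not tested.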

How the data were processed

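Per the submitters' processing notes, the authors scanned the arrays with Agilent Feature Extraction 9.1.3.1; the deposited scanner files hold spot intensity values for each dye and their local backgrounds, with log10 ratios of Cy5 over Cy3, and the authors' deposited value table holds those log10 ratios with the sign turned (largest gap 4.96e-06), used only as an alternative. From the intensities, background was corrected by normexp (offset 50), dyes were balanced by loess within arrays with control and outlier-flagged spots given no weight, and log2 ratios of F/- over F/+ were computed, in R 4.3.3 with limma 3.58.1. Of 45018 spots, 1639 control spots were left out, and spots of a probe were averaged. A probe was kept if well above background on at least 2 arrays in either dye and measured on all arrays but 1 at most. Genotype ratios at passage 3 and passage 1, their mean and their difference were fitted over 35563 probes, with the arrays taken as independent. Passage changes within a genotype came from a separate-channel fit after Aquantile normalisation (spot correlation 0.741) over the 35464 probes measured on every array. p-values were adjusted by Benjamini-Hochberg over all probes of a fit, with a threshold of 0.05; the scripts were tested on simulated data. The small number of arrays limits the precision.

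The members and the gene lists were chosen with earlier results of these data known. All members are named. From each other list, up to 4 genes a direction were named by mean genotype ratio among those called with the same sign on 4 arrays, up to 3 a direction for each passage change, and the largest and smallest mean where none passed. The brightest kept probe stood for a gene. A gene of the substrate list that the rule would name is not reported here. Names came from RefSeq GRCm38.p6 by accession for 21692 kept probes, by symbol for 5445 and by older symbol for 2592; 5834 kept the name in the files. The labels do not say whether an equal pair number at passage 3 and passage 1 marks the same mice; deviations from the group means correlated at -0.00047 over probes. Alternatives were other background corrections, normalisations, starting values, filters and probe choices, the pair as a block, and leaving out each array.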

Additional observations from a re-analysis of the deposited data

Results flagged for a closer look

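Klk10 stood out because its genotype ratio had opposite signs at the passages. The log2 ratio of F/- over F/+ was -0.74 and -0.73 at passage 3 and 0.02 and 0.11 at passage 1, a difference of -0.80 (SE 0.11). The limma test of that difference gave an unadjusted p of 0.00077 and an adjusted p of 0.820 over all probes, so it did not pass the correction. Opposite signs on all arrays of the passages were shown by 7.82% of the 35464 probes. With arrays centred on their median in place of loess the passage 1 mean was -0.21, so the sign at passage 1 depends on the normalisation.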

How the results depend on the processing

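The mean genotype ratio was called for 3145 probes (2081 higher, 1064 lower), for 0 to 3966 without an array, for 0 with the arrays of a pair averaged first, for 1933 from the scanner's own log ratios and for 1805 from the authors' deposited table. When arrays were centred on their median, without loess, 917 were called as higher and 3050 as lower, and the cause was not tested. Passage changes were called for 1813 probes in F/- cells and 2006 in F/+ cells, for 107 to 3120 and 187 to 4569 without an array, and for 3938 and 4123 with the pair as a replicate block. The block made Klk8 pass the test in both genotypes and changed no other call among the 14 probes. In these fits a lone array of a passage was assumed to vary like the others, and the spot correlation of the 4 arrays was used. With offset 0 the passage 1 ratio was called for 69 probes, against 0. That centring also turned the sign of Klk5 (0.0021), Klk8 (-0.33), Klk11 (-0.097) and the brighter Spint1 probe (-0.14) at passage 3, of Klk8 (-0.42), Klk10 (-0.21), Prss8 (-0.076) and the brighter St14 (-0.25) and Spint1 (-0.27) probes at passage 1, of the mean of Klk8 (-0.37), Prss8 (-0.031) and the brighter St14 (-0.12) and Spint1 (-0.20) probes, and of passage 3 minus passage 1 of the genotype ratio for Klk6 (0.10) and the brighter 2 Klk7 probes (0.068 and 0.074). From the scanner's log ratios and the authors' table that difference was -0.0041 for Spink5 and -0.094 for Klk8. Ranked by Pearson's r, 1 of the 8 genes nearest to Spink5 was the same. Spink5 minus the mean protease ratio moved by less than its spread over arrays under every alternative run. Signal over background limits Klk5 and Spink5 at passage 3, and Klk11 at both passages.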
